A study of Homo sapiens with 8 samples.

Results

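RBM20 is an RNA-binding protein of striated muscle that controls alternative splicing of titin and of other sarcomere, ion channel and calcium-handling transcripts. It acts by binding to introns of the target pre-mRNA and repressing exon inclusion, and mutations in it cause dilated cardiomyopathy. Chromatin accessibility does not measure splicing. It marks the promoters and distal elements of these genes that are free of nucleosomes, and these are read here at the RBM20 gene itself, at 5 genes that the study counts among its splicing targets, CACNA1C, CAMK2D, LMO7, KCNIP2 and FNBP1, and at THSD7B, which is not such a target. In the study, THSD7B served as a negative control locus for nuclear contacts, on the same chromosome as the titin gene TTN. The 7 genes are 7 of 19970 protein-coding genes of the annotation, GENCODE 44 on GRCh38. Every ATAC-seq peak that overlapped a gene from 20 kb before its first to 20 kb after its last base was taken, and overlapping peaks of different libraries were merged to 1 region. This gave 378 regions of 285853 in all, with 52 at RBM20, 118 at CACNA1C, 42 at CAMK2D, 34 at LMO7, 10 at KCNIP2, 24 at FNBP1 and 98 at THSD7B.

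The samples were RUES2 cells, a human embryonic stem cell line, collected on day 0 as undifferentiated cells (hESC), on day 2 as mesoderm (MES), on day 5 as cardiac progenitors (CP) and on day 14 as cardiomyocytes (CM), with 2 ATAC-seq libraries per stage. The labels call the 2 libraries of a stage biological replicates but do not say whether they came from separate differentiations, so that p-values measure the spread between these libraries. All samples came from this 1 line, differentiated with the Wnt activator CHIR-99021 followed by the Wnt inhibitor Xav-939. The day 0 cells had already been given CHIR-99021 on the day before. The study checked day 14 cultures by flow cytometry and kept for its assays those in which most cells held cardiac troponin T. The labels give no purity of the cultures behind these libraries, and in a mixed culture a weaker peak in each cell and a peak in fewer cells cannot be told apart.

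The lists held between 55777 peaks, in CM replicate 2, and 156179 peaks, in MES replicate 2. CM replicate 2 also had the lowest background, 2.54 extended reads per position against 3.13 to 4.62 in the other libraries, and its short list touches every count below that involves CM. The share of a list that fell on the 7 loci was between 0.113% and 0.133%. The peak of highest fold of each region in each library gave 1077 values, with between 12 and 171 extended reads piled up at the summit. The median was 31, for which counting error alone is 18.0%. Markers of the stages were checked by the same locus measure that is used below for the 7 genes. From hESC to CM, TBX5 and GATA6 rose among 6 cardiac progenitor markers and L1TD1 fell among 6 pluripotency markers, where 1.44% of all loci were called higher and 4.85% lower. Among 6 cardiomyocyte markers none passed as higher. MYL7, MYBPC3, MYH6, ACTN2 and TNNI1 had positive differences that did not pass, between 0.18 and 0.61, and the list median was 0.31 (log2). The cardiac troponin gene TNNT2 fell, from a summed fold of 28 and 31.4 in hESC to 7.43 and 9.78 in CM. Of 13 markers of endothelial, smooth muscle and stromal, neural and endodermal cells none rose and the endodermal AFP fell. The summed fold of the 3 endothelial markers was 62.5 and 122 in hESC and 55.2 and 25.6 in CM, and that of the 4 smooth muscle and stromal markers was 158 and 194 in hESC and 128 and 80.3 in CM. For the 3 neural markers the sums were 86.5 and 111 in hESC against 70.6 and 53.9 in CM, and for the 3 endodermal ones 67.5 and 97.8 against 49.7 and 9.25. Whether other cell types had a part in the differences below was not tested.

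Accessible sequence in these loci lay mostly inside introns, with no share of all regions to set beside this. The gene itself filled 912 of 952 kb of the window at THSD7B and 727 of 767 kb at CACNA1C. At KCNIP2 it filled 17.9 of 57.9 kb. Of the 378 regions, 322 had their summit in an intron of the gene, 43 in the flanks, 7 in an untranslated region, 5 in a coding exon and 1 in a non-coding exon. Within 1 kb of a start site of a protein-coding transcript of the gene there were 21 regions, and 17 others lay at the start of a neighbouring gene. A peak in a single library was all that 164 of the regions had, 43.4% of them against 40.7% of all regions, and 35 regions had a peak in all 8 libraries, 9.26% against 9.84%. Per 100 kb the loci held 22.1 regions at RBM20, 17.3 at KCNIP2, 15.4 at CACNA1C, 12.2 at both LMO7 and FNBP1, 10.9 at CAMK2D and 10.3 at THSD7B.

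The sequences on which the results turn are the stretch in front of RBM20, whose promoter rose, an intronic RBM20 region that rose, and those regions of the loci with a peak in both CM libraries and in neither hESC library that carried the strongest peaks. Each is read from GRCh38 as 300 bases around the summit, or as 250 bases before the start site of RBM20, on the plus strand. Regions are named by the distance of the summit from the main start site of the gene along its direction of transcription. Capitals mark matches on either strand to the core letters of motifs of cardiac and pluripotency factors. These are GATA with A or T before and A or G after it for GATA factors, TNAAGTG for NKX2-5, AGGTGT for T-box factors, CATTCC for TEAD, ATGCNAAT for POU factors, ATCAAAG for TCF and LEF, and by name only MEF2, the CArG box and CTCF. Matches of different motifs may overlap.
RBM20 promoter, chr10:110644086-110644335: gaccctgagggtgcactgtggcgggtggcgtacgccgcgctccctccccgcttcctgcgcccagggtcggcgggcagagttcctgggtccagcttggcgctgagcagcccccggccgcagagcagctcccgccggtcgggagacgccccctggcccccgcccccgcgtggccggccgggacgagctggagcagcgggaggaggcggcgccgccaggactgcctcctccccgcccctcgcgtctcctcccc
RBM20 -14.3 kb, chr10:110629892-110630191: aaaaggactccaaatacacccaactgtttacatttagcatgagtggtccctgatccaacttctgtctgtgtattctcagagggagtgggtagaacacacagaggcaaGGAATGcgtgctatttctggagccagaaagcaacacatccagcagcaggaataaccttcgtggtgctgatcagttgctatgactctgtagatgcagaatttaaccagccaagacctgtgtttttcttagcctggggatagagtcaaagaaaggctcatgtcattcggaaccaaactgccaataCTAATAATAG
RBM20 +57.5 kb, chr10:110701725-110702024: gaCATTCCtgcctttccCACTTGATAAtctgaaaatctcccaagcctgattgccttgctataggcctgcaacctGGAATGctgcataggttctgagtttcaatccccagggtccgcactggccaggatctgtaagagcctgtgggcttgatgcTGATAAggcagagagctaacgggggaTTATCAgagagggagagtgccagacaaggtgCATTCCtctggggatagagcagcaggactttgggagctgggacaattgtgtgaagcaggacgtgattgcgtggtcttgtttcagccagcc
RBM20 +73.7 kb, chr10:110717868-110718167: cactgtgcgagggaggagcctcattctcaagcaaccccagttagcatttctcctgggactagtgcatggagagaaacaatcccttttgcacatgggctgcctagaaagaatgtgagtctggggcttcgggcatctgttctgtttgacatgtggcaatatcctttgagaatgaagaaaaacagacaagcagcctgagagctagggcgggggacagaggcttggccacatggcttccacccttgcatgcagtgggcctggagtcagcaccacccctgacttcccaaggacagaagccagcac
CACNA1C -79.9 kb, chr12:1972934-1973233: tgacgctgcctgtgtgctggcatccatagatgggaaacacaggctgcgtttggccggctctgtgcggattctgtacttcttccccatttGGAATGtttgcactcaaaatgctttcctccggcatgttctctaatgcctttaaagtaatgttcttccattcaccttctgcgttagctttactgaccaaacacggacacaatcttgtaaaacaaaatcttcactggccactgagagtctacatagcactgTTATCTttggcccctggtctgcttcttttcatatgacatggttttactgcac
CACNA1C +487.6 kb, chr12:2540435-2540734: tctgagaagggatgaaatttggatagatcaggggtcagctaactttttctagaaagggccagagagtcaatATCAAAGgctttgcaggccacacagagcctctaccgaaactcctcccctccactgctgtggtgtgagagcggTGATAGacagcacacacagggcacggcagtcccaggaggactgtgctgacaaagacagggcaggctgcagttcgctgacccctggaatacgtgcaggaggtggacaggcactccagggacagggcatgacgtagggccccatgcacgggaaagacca
CAMK2D +178.8 kb, chr4:113582790-113583089: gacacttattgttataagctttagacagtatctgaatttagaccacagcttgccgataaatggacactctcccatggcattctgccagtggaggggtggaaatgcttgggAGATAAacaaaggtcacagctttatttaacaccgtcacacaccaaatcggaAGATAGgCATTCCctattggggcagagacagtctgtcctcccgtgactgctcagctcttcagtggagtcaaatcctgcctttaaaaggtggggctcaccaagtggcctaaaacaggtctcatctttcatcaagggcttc
THSD7B +425.4 kb, chr2:137190797-137191096: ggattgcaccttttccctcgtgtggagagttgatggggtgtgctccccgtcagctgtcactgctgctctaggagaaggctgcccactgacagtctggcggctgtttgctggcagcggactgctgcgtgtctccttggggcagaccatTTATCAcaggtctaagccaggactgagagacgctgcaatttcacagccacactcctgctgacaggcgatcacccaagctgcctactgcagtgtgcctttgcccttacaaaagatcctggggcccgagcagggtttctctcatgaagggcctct

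The 250 bases before the RBM20 start site hold no match to any of these motifs, and neither does the 300-base window of RBM20 +73.7 kb. The promoter region that rose reaches beyond these 250 bases on both sides, and its other bases are not shown. RBM20 +57.5 kb holds 3 GATA, 3 TEAD and 1 NKX2-5 match, of which 1 GATA and the NKX2-5 match overlap. RBM20 -14.3 kb holds 1 MEF2 and 1 TEAD match. A GATA core was found in 39.9% of the 378 regions and in 37.4% of all regions in windows of 300 bases. The corresponding shares were 16.1% and 15.4% for NKX2-5, 17.5% and 17.9% for the T-box core, 19.6% and 20.2% for TEAD, and 2.91% and 2.14% for MEF2. By gene, the GATA share ran from none of 10 regions at KCNIP2 to 61.9% at CAMK2D. These are counts of letters and do not show that a factor was bound.

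RBM20 spans chr10:110644336-110839468 on the plus strand, 195 kb, with 1 protein-coding transcript. At its start site, the region chr10:110643700-110644758 had higher folds at the 2 later stages, of which only CM was tested against hESC. Accessibility is given as the fold of the peak summit over the local background, which the peak caller computes with 1 added to both. The fold was 4.13 and 4.71 in the hESC libraries, 4.66 and 4.78 in MES, 6.40 and 7.55 in CP and then 6.54 and 7.24 in CM. The hESC and MES libraries lay together below all 4 libraries of CP and CM, with no overlap. Relative to the library median, the fold rose by 0.86 ± 0.16 from hESC to CM (log2, SE, n = 2 against 2; limma, adjusted p = 0.00393). The call held with any 1 library left out but was lost without centring on the library median. Between neighbouring stages the region passed in none of the 3 steps. The number of extended reads at the summit was 44 and 67 in hESC and 83 and 61 in CM, so that the ranges of the raw pileups overlapped, and the lower background of CM replicate 2 enters its fold. The start of a non-coding gene, ENSG00000289954, lies in the same region, and accessibility does not tell the 2 starts apart.

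A region just upstream of it, RBM20 -1.1 kb, was weaker than the start site in CM but not in both hESC libraries, and did not pass the test. Its fold was 4.92 and 3.94 in hESC and 2.88 and 3.42 in CM, a difference of -0.27 ± 0.19 (log2, SE; limma, adjusted p = 0.330).

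RBM20 +57.5 kb at chr10:110701535-110702494, in an intron of the gene, had a peak at every stage and was more accessible in mesoderm than in hESC. The fold was 5.05 and 3.68 in the hESC libraries, 8.41 and 9.81 in MES, 7.86 and 12.0 in CP and then 6.20 and 5.89 in CM. Both MES and both CP libraries were above both hESC libraries and above both CM libraries. It rose by 0.97 ± 0.18 from hESC to MES (log2, SE; limma, adjusted p = 0.0187) and ended higher in CM than in hESC, by 0.71 ± 0.18 (adjusted p = 0.0224). The fall from CP to CM did not pass the test. Without hESC replicate 2 or either MES library the first call was lost, and without hESC replicate 2 or either CM library the second. Both were lost without centring on the library median.

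**Figure D1:**
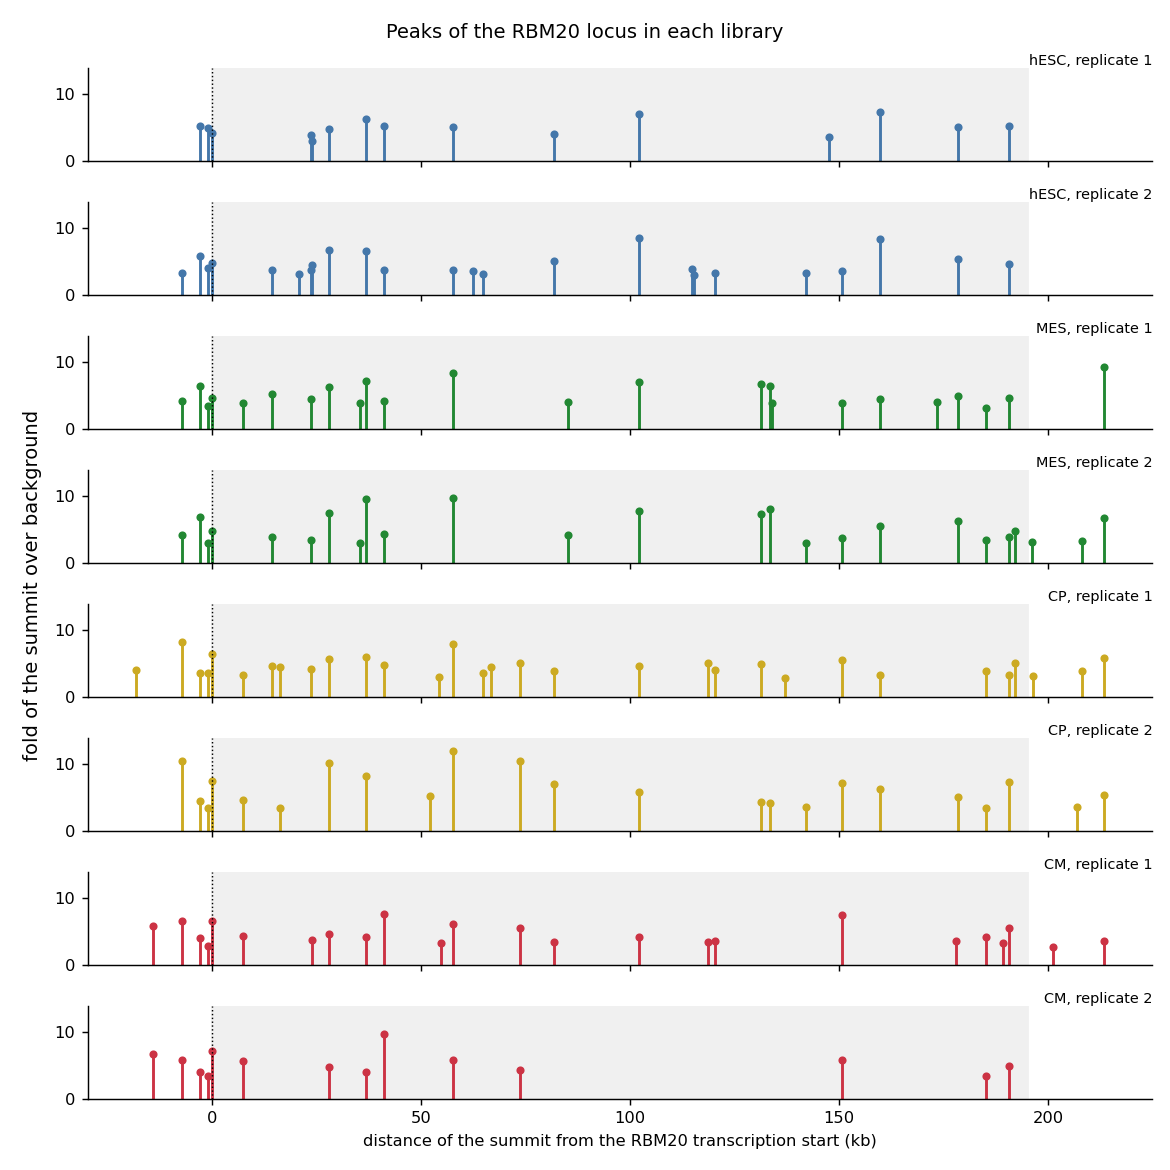
Fold over local background of every peak of the RBM20 locus (vertical axis, linear, 1 panel per library) against the distance of its summit from the start site in kb (grey, the gene; dotted line, the start site). The peak at the start site is at 4.13 and 4.71 in hESC and at 6.54 and 7.24 in CM, and the peak at +73.7 kb is listed in the CP and CM libraries only.

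Accessible regions of RBM20 numbered 15 and 24 in the hESC libraries, 24 and 25 in MES, 31 and 23 in CP and then 24 and 14 in CM. A region was called gained from one stage to another where both libraries of the later stage and neither of the earlier one listed a peak, and lost in the opposite case. From hESC to CM, 4 of 52 regions (7.69%) were gained and 3 (5.77%) were lost, against 3.15% gained and 13.5% lost over all 285853 regions. RBM20 +73.7 kb, which had the highest fold among the gained ones through 1 CP library, had a fold of 5.08 and 10.5 in CP and of 5.49 and 4.36 in CM, and no peak in hESC or MES. RBM20 -14.3 kb, upstream of the gene, was listed only in CM, at 5.81 and 6.78, and was the stronger of the 2 at that stage. RBM20 +185.2 kb had weak peaks from MES onwards, with 4.12 and 3.36 in CM.

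The strongest lost region of RBM20 was at +159.7 kb. It had 7.26 and 8.42 in the hESC libraries, 4.51 and 5.59 in MES, 3.33 and 6.25 in CP and no peak in CM. RBM20 +178.5 kb was lost as well, from 5.00 and 5.42 in hESC.

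Other regions of the locus changed without meeting these definitions, and the following were chosen after their values were seen. RBM20 -7.2 kb was not listed in hESC replicate 1 and had 3.25 in replicate 2, 4.13 and 4.21 in MES, 8.28 and 10.5 in CP and then 6.56 and 5.87 in CM. RBM20 +41.0 kb was at 5.19 and 3.64 in the hESC libraries, 4.22 and 4.25 in MES, 4.79 in CP replicate 1 with no peak in replicate 2, and 7.58 and 9.71 in CM. The CM libraries were above all others at that region, and the CP libraries were highest at -7.2 kb. RBM20 +133.5 kb was listed in both MES libraries, at 6.36 and 8.10, in 1 CP library, at 4.25, and in no library of hESC or CM.

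The signal of a whole locus was the sum of the folds of its peaks. For RBM20 the sum was 74.5 and 112 in the hESC libraries, 124 and 135 in MES, 145 and 144 in CP and then 110 and 75.7 in CM. These sums rise with the length of a list, so that each library was centred on the median of 19164 loci on the scale log2(sum + 1), a median that fell by 0.499 from hESC to CM. On that scale RBM20 was at 1.47 and 1.78 in the hESC libraries, 2.16 and 1.95 in MES, 2.54 and 2.15 in CP and then 2.29 and 1.96 in CM. Both hESC values were below the other 6. The difference between CM and hESC, 0.50 ± 0.23 (log2, SE; limma, adjusted p = 0.201), did not pass the test. With the lists cut to equal length it was 0.86 and passed (adjusted p = 0.0386), as it did after quantile normalization, again at 0.86 (adjusted p = 0.0360). It was smaller, at 0.18 with 5 kb on either side of the gene (adjusted p = 0.667) and at 0.33 with numbers of peaks in place of sums (adjusted p = 0.556).

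**Figure D2:**
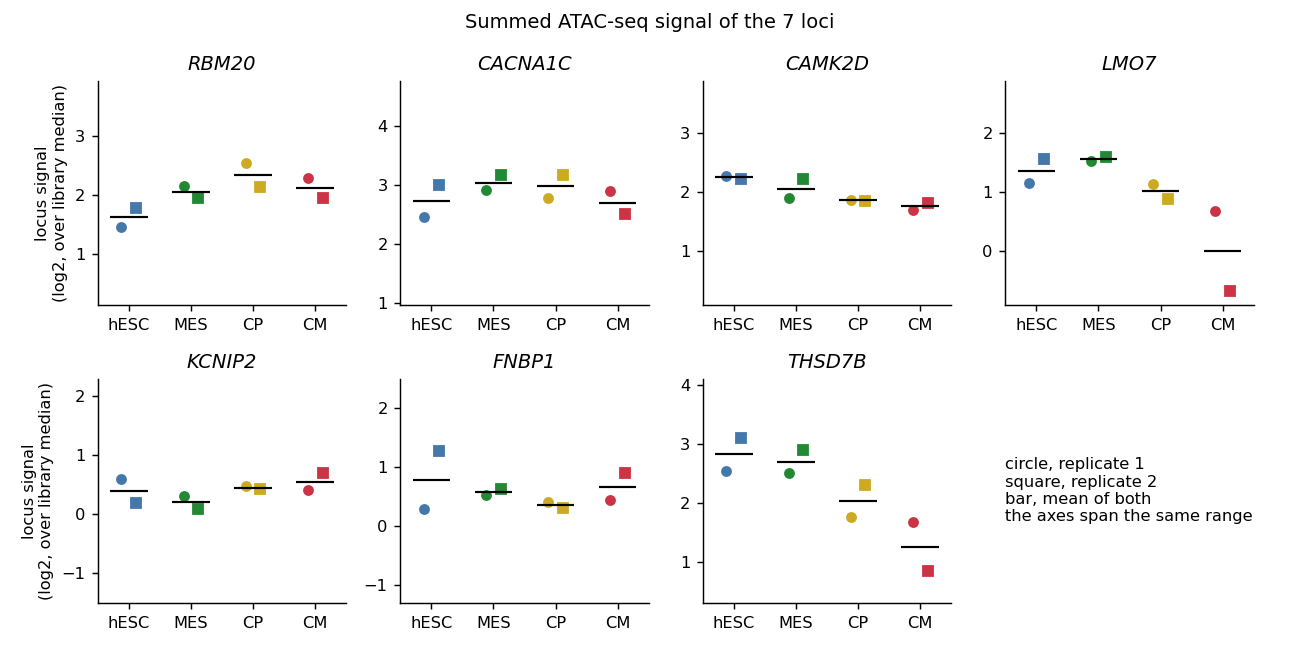
Signal of the 7 loci in each library, as log2(summed fold + 1) minus the median over loci of that library, by stage (circles, replicate 1; squares, replicate 2; bars, means of the 2; every vertical axis spans the same range). Both hESC values of RBM20, 1.47 and 1.78, are below the other 6, and the THSD7B values fall from 2.54 and 3.09 in hESC to 1.67 and 0.84 in CM.

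Among all 7 loci, THSD7B fell from hESC to CM and none rose, where 1.44% of all loci were higher and 4.85% lower. THSD7B encodes a thrombospondin repeat protein of the membrane and spans 912 kb of chromosome 2. Its summed fold was 158 and 280 in the hESC libraries, 157 and 259 in MES, 84.1 and 160 in CP and then 71.0 and 34.5 in CM. Both CM libraries were below the other 6. It fell by 1.56 ± 0.33 relative to the library median (log2, SE; limma, adjusted p = 0.0274), and the call was lost without CM replicate 2 (-1.15), hESC replicate 1 (-1.84), hESC replicate 2 (-1.29) or MES replicate 1 (-1.56). It was also lost with lists of equal length, where the difference was -0.685 (adjusted p = 0.0944), and with no trend of the spread, a setting chosen after seeing the data (-1.56, adjusted p = 0.0682).

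Each of the other 5 target loci missed the threshold. LMO7, which encodes a LIM domain protein of cell junctions, had sums of 59.3 and 95.0 in hESC and of 35.3 and 11.4 in CM. The CM values were lowest and lay far apart, and the difference was -1.34 ± 0.36 (log2, SE; limma, adjusted p = 0.0549). It passed with numbers of peaks (-1.05, adjusted p = 0.0426), with a pseudocount of 5 (-1.21, adjusted p = 0.0288), after quantile normalization (-1.21, adjusted p = 0.0342) and without CM replicate 1 (-2.02), which leaves the lowest library to stand for CM. Without CM replicate 2 it was -0.668 and did not pass. CAMK2D, the delta chain of the calcium/calmodulin-dependent kinase II, had 131 and 154 in hESC and 72.5 and 69.2 in CM, a centred difference of -0.50 ± 0.19 (adjusted p = 0.139). KCNIP2, which encodes an auxiliary subunit of cardiac potassium channels, differed by 0.16 ± 0.20. FNBP1, a membrane-bending protein of endocytosis, differed by -0.11 ± 0.29. The sums include peaks at the starts of neighbouring genes. At FNBP1 7 of 24 regions were of this kind, with 2 at its own start sites, and at KCNIP2 1 of 10, with 5 at its own. CACNA1C, the pore-forming subunit of the L-type calcium channel, had sums of 148 and 262 in hESC and of 168 and 111 in CM, with a difference of -0.03 ± 0.31. The spread between the 2 hESC libraries of CACNA1C was larger than that difference, and the directions for CACNA1C, KCNIP2 and FNBP1 turned under other settings.

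Between neighbouring stages none of the 7 loci passed. From hESC to MES 0.0% of all loci were called in either direction, as were 0.0% from MES to CP, in limma with 1307 and 1328 loci at an unadjusted p below 0.05. From CP to CM 0.0104% of all loci were higher and 0.386% lower.

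The main promoters of the 7 genes were accessible in all 8 libraries, and among them only that of RBM20 passed the test between hESC and CM. CAMK2D had the strongest promoter in hESC, with 7.56 and 7.45, and in CM it had 5.86 and 6.60. FNBP1 was at 7.07 and 6.67 in hESC and at 7.57 and 7.28 in CM. LMO7 was at 5.22 and 5.30 in hESC, 6.52 and 6.35 in CP and then 4.90 and 5.74 in CM. The CM values lay below those of hESC at CAMK2D, above them at FNBP1 and on either side of them at LMO7, and none of the 3 differences passed.

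THSD7B had 5.15 and 5.52 in hESC and 4.08 and 4.20 in CM, which did not overlap but differed by -0.15 ± 0.16 relative to the median (log2, SE; limma, adjusted p = 0.540). CACNA1C had 3.98 and 3.76 in the hESC libraries, 5.61 and 5.06 in MES and 4.13 and 4.31 in CM. KCNIP2 had 3.59 and 4.23 in hESC and 4.21 and 3.64 in CM, with overlapping ranges.

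**Figure D3:**
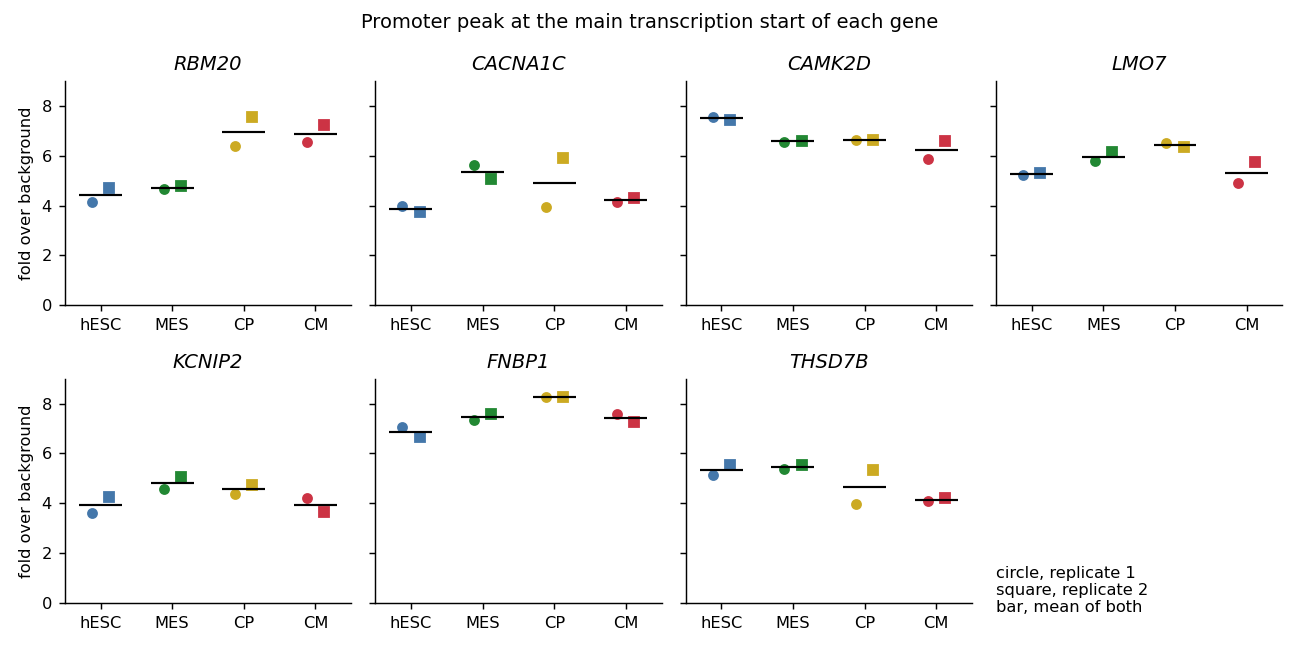
Fold over local background (vertical axis, linear, from 0) of the peak at the main start site of each gene, by stage and library (circles, replicate 1; squares, replicate 2; bars, means of the 2). The RBM20 promoter is at 6.40 to 7.55 in the CP and CM libraries and at 4.13 to 4.78 in the hESC and MES libraries, and no other promoter shown passed the test from hESC to CM.

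Some alternative start sites gave further differences that were not tested, since their regions were missing from 1 or more lists. The remaining alternative start sites are not described here. CACNA1C +450.9 kb, at the start of 1 coding transcript, was not listed in hESC and had 5.71 and 6.68 in MES, 4.94 in CP replicate 2 and 4.08 and 5.62 in CM. LMO7 +167.0 kb, within 1 kb of 5 start sites of coding transcripts, was at 12.3 and 11.1 in the hESC libraries, 10.4 and 10.5 in MES, 8.93 and 7.90 in CP and then 4.78 in CM replicate 1, with no peak in CM replicate 2. Each of the 2 CP values was below all hESC and MES values there, and the CM value was lowest. LMO7 +124.3 kb, also near 5 start sites, had 5.16 in hESC replicate 2 and 6.78 and 5.65 in CM, and was missing from hESC replicate 1 and CP replicate 2. KCNIP2 +4.3 kb, at the start of 1 coding transcript, was listed in hESC at 2.77 and 2.90 and was lost in CM.

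Over the 35 regions of the loci with a peak in all 8 libraries, the fold relative to the library median was tested against all 28115 such regions. From hESC to CM 5 were higher, read against 6.33% of all regions, and 2 were lower, read against 6.04%. That is 5 and 2 of 35, and the median difference, 0.10 on the log2 scale, was also that of all regions. The higher ones were the RBM20 promoter, RBM20 +57.5 kb, CAMK2D +76.8 kb, KCNIP2 +2.5 kb and FNBP1 +157.3 kb. Without the centring none of these 5 passed, while both lower ones did. The median fold of all regions tested fell by 0.22 (log2) from hESC to CM, so that each rise is one relative to that shift.

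CAMK2D +115.2 kb, in an intron, fell most clearly among the CAMK2D regions. It had 10.9 and 11.4 in hESC, 10.6 in both MES libraries, 7.51 and 8.80 in CP and then 5.03 and 5.65 in CM. The 4 stages did not overlap and lay in falling order. The difference between CM and hESC was -0.85 ± 0.14 (log2, SE; limma, adjusted p = 0.00181). In the same gene CAMK2D +76.8 kb rose by 0.73 ± 0.22 (adjusted p = 0.0448), from 5.32 and 6.23 in hESC to 7.72 and 8.76 in CM. CP replicate 2 stood at 14.9 there against 6.41 in replicate 1, and leaving out any 1 of the hESC, MES or CM libraries took the call away.

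THSD7B +167.3 kb was at 11.4 and 13 in the hESC libraries, 11.3 and 13.4 in MES, 7.90 and 11.8 in CP and then 5.74 and 4.52 in CM. Only the CM libraries stood clear of the rest, and the region fell by 1.03 ± 0.16 (log2, SE; limma, adjusted p = 0.00122). KCNIP2 +2.5 kb was weak throughout, with 2.75 and 2.97 in hESC and 3.26 and 4.39 in CM, and rose by 0.63 ± 0.16 (adjusted p = 0.0232), a call that was lost without CM replicate 2 or either hESC library. FNBP1 +157.3 kb lies beyond the end of the gene, at the start of the non-coding gene ENSG00000288956. It had 4.40 and 4.44 in the hESC libraries, 5.10 and 5.78 in MES, 5.59 and 6.72 in CP and then 6.61 and 6.48 in CM, and rose by 0.79 ± 0.16 (adjusted p = 0.00605), which was lost without hESC replicate 2.

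From hESC to MES, RBM20 +57.5 kb and THSD7B +760.5 kb were higher among the 35, read against 0.694% of all regions, and none was lower, against 0.178%. THSD7B +760.5 kb had 4.92 and 4.90 in the hESC libraries, 10.6 and 11.4 in MES, 6.37 and 10.8 in CP and then 4.59 and 3.96 in CM. The MES libraries were far above hESC, by 1.05 ± 0.18 (log2, SE; limma, adjusted p = 0.00972), and the CM values were below those of hESC. Leaving out either library of hESC or of MES took this call away. No region of the loci passed from MES to CP, where 0.245% of all were higher and 0.21% lower, or from CP to CM, where 0.391% were higher and 1.71% lower. At an unadjusted p below 0.05 in limma there were 8 and 10 of the 35 in these 2 steps, and 2798 and 5474 of all 28115 regions.

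**Figure D4:**
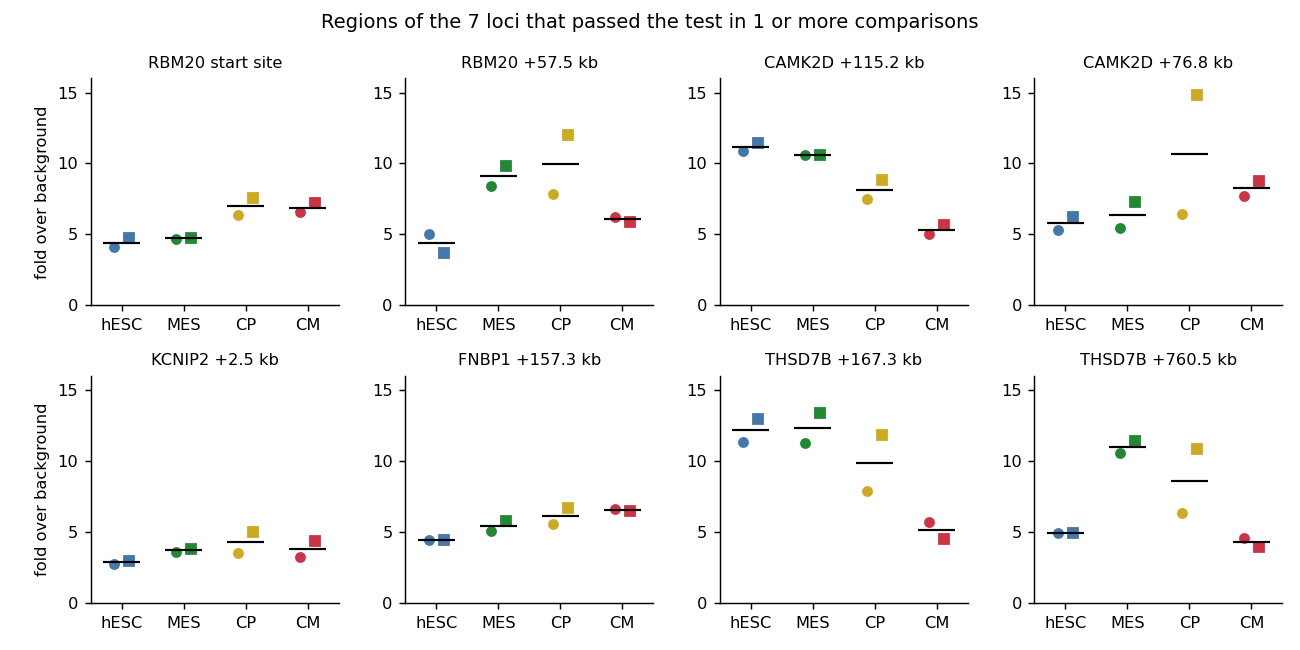
Fold over local background (vertical axis, linear, the same in all panels) of the 8 regions of the loci that passed the test from hESC to CM or from hESC to MES, by stage and library (circles, replicate 1; squares, replicate 2; bars, means of the 2). CAMK2D +115.2 kb and THSD7B +167.3 kb are at 10.9 to 13 in hESC and at 4.52 to 5.74 in CM.

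Between the first and the last stage, the 378 regions were gained and lost in shares near those of all regions. From hESC to CM 11 regions (2.91%) were gained and 46 (12.2%) lost, against 3.15% and 13.5% of all regions. The order turned with lists of equal length, where 20 were gained and 15 lost. The shares of all regions in that setting are not given, so that this turn is not a result about the 7 loci. CACNA1C gained 5 and lost 9, CAMK2D gained 1 and lost 11, and THSD7B gained 1 and lost 16. LMO7 lost 4, KCNIP2 lost 2 and FNBP1 lost 1, and these 3 loci gained none. The share lost was 26.2% at CAMK2D and 16.3% at THSD7B. Without CM replicate 2 the 7 loci gained 43 regions (11.4%, against 11.8% of all regions), and without hESC replicate 1 they lost 138 (36.5%, against 33.0%).

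From hESC to MES 25 regions of the loci were gained and 14 lost, where 6.02% and 3.96% of all regions were. The gained ones included 10 at CACNA1C and 6 at RBM20. From MES to CP 7 were gained and 34 lost, against 2.14% and 6.13% of all regions, and 13 of those lost were at THSD7B. From CP to CM 4 were gained and 21 lost, against 1.41% and 6.34%.

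**Figure D5:**
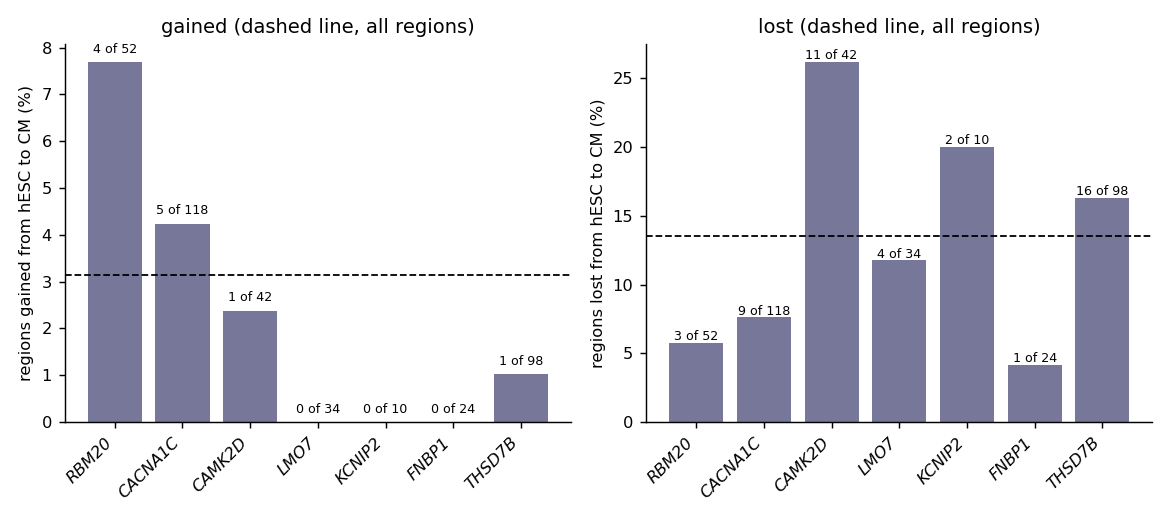
Share of the regions of each locus that were gained (left) or lost (right) from hESC to CM, in percent, with the counts above the bars and the share over all regions as a dashed line. RBM20 gained 4 of 52 regions and CAMK2D lost 11 of 42, and counts per locus are small.

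The gained region of CACNA1C with the highest fold in any library, at +487.6 kb, had no peak in hESC. It was listed at 6.25 in MES replicate 2, at 5.42 and 9.55 in CP and at 6.0 and 7.88 in CM. CACNA1C -79.9 kb appeared at 6.90 in CP replicate 2 and at 6.89 and 8.98 in CM, where it was the stronger of the 2. CAMK2D +178.8 kb was listed in CM alone, at 6.21 and 4.05. THSD7B +425.4 kb, the only gained region of that locus, had 3.84 in MES replicate 1, 8.13 and 11.4 in CP and then 8.16 and 7.31 in CM, so that a locus whose summed signal fell still gained a region.

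Of the lost regions, CAMK2D +308.3 kb had the strongest peaks. It was at 11.2 and 8.48 in the hESC libraries, 7.17 and 8.57 in MES, 4.92 and 6.08 in CP, and was not listed in CM. CAMK2D +354.1 kb, in the flank beyond the gene, had 6.57 and 8.28 in hESC and 5.81 in CP replicate 2. THSD7B +108.9 kb had 8.47 and 8.69 in hESC and 5.81 in CP replicate 2, and LMO7 +189.0 kb had 6.75 and 7.46 in hESC and 4.75 and 4.66 in MES. CACNA1C +364.9 kb was lost from 5.45 and 6.19 in hESC, with 3.66 left in MES replicate 2. FNBP1 lost its region at +152.6 kb, which had 4.35 and 4.82 in hESC and 3.66 and 4.87 in CP, and KCNIP2 lost +7.6 kb, at 3.8 and 3.51 in hESC.

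Among the 11 gained regions 7 held a GATA core, or 63.6%, where 65.2% of all 9001 gained regions did. None of the 11 held an NKX2-5 core, against 24.8% of all gained regions. Of the 46 lost regions 28.3% held a GATA core, against 33.6% of all lost ones, and 8.70% a POU core, against 8.22%. An NKX2-5 core was in 26.1% of the 46, or 12 regions, against 14.8% of all lost ones. With 11 and 46 regions these shares rest on small counts.

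Other genes of RBM20-dependent splicing were read from a list of 18. None was higher in CM than in hESC and 2 were lower, read against the 1.44% and 4.85% of all loci, with a median locus difference of 0.06 against -0.01 over all loci (log2). RYR2, the calcium release channel, fell by 1.30 ± 0.27 (log2, SE; limma, adjusted p = 0.0271), from 190 and 282 in hESC to 87.0 and 49.7 in CM. TRDN, which encodes the channel's partner triadin, fell by 1.15 ± 0.24 (adjusted p = 0.0279). TTN itself had sums of 68.4 and 99.9 in hESC and 79.7 and 56.5 in CM, a difference of 0.20 ± 0.21. MYH7, the slow myosin heavy chain, had no listed peak in hESC replicate 1 and MES replicate 1, 7.84 in hESC replicate 2, and 25.8 and 23.7 in CM, and missed the threshold (adjusted p = 0.0633). Of 16 other splicing regulators none was higher and 1, QKI, was lower, read against the same shares, by -0.88 ± 0.20 (adjusted p = 0.0330), with a list median of 0.25. RBM24, which acts on muscle exons, had 14.9 and 17.4 in hESC and 16.7 and 17.5 in CM. Its centred difference, 0.58 ± 0.29 (log2, SE; limma, adjusted p = 0.237), did not pass.

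By the centred locus signal over the 8 libraries, the protein-coding loci whose pattern was most like that of RBM20 were UPK2 (Pearson's r = 0.986), CEBPB (0.974), ZFYVE27 (0.970), OTULINL (0.958) and BEND4 (0.950). Of the other 6 genes CACNA1C had an r of 0.343 and CAMK2D one of -0.765, and the remaining 4 lay between -0.401 and -0.042. These 8 points are libraries that share a stage in pairs and differ in depth, and the values are a description.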

How the data were processed

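ATAC-seq of 8 RUES2 libraries was analysed from the peak lists that the authors deposited, 1 per library. Per the study's methods and the labels, the authors mapped paired reads to hg38 with BWA 0.7.13, kept primary alignments of high mapping quality, removed duplicates with Picard and called peaks with MACS2 2.1.0, in each library separately, with no fragment model and with reads shifted against their direction and extended, which centres the signal on the cut site. Replicates were not pooled. The deposited lists give a fold over the local background as a linear ratio, a -log10 p-value and a -log10 q-value for each peak, with the summit's position in bases. No read counts were used here, so that the count model of the study could not be run, and the depth of a library is known only through its background.

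Pileup and background of every summit were recovered from the deposited fold and -log10 p, for 100% of peaks to within 0.001. Peaks on chromosomes 1 to 22 and X were merged over the lists. Tests were made with limma 3.58.1 in R 4.3.3 with a trend of the spread with the level, two-sided, over all 8 libraries. They ran on log2(summed fold + 1) of 19164 protein-coding loci with peaks in 2 or more libraries, and on log2 of the fold of 28115 regions with a peak in all 8, each library centred on its median, with Benjamini-Hochberg adjustment over all features and a threshold of 0.05. Presence calls have no test. The statistics were tested on simulated data.

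All 7 genes are named. The named regions are those at main start sites, up to 3 gained and 2 lost per gene by -log10 q, and those called. Of the regions at alternative start sites only some are named. The genes, lists and regions were chosen with earlier results of these data known. Alternatives were other flanks, pseudocounts, thresholds, scalings and list lengths, the replicate block and leaving out each library.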

Additional observations from a re-analysis of the deposited data

How the results depend on the processing

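Counts of calls among the 7 loci and 35 regions were small and moved with the settings, and the cause was not tested unless named. Counts over all features moved too, so that a changed count is not by itself a result about these loci. From hESC to CM, the loci higher over all were 276 in the main setting, 549 with lists of equal length and 538 after quantile normalization. Those lower were 929, 755 and 971 in the same order. They were 417 with no trend of the spread, 670 with numbers of peaks and 1149 with a pseudocount of 5. Of the 7 loci, 1 was higher with lists of equal length and after quantile normalization (RBM20 in both), against 0. The number lower, 1, became 0 with lists of equal length or with no trend of the spread (a setting chosen after seeing the data), and 2 when numbers of peaks were used, with a pseudocount of 5 or after quantile normalization, and ran from 0 to 2 with 1 library left out. From CP to CM it ran from 0 to 2. Regions higher from hESC to CM, 5, became 0 without centring, 3 after quantile normalization and 22 where missing peaks were set to the lowest fold, and ran from 1 to 6 with 1 library left out. In that setting 37.4% and 55.9% of the CM values were set ones, so that CM medians were low by construction. That setting tested 91235 regions, of which 13704 were higher from hESC to CM. In the main setting 1779 of 28115 were higher, so that 22 is not a count out of 35. Of the same 28115 regions 129 were higher without centring and 1041 after quantile normalization. The number lower among the 35, 2, became 4 with the summit pileup over the lowest background. Over all regions it was 1699 in the main setting and 2217 with the summit pileup. Regions higher from hESC to MES, 2, became 1 at a -log10 q of at least 5 and 0 without centring (leave-one-out range 0 to 2). From MES to CP, against 0 in either direction, 2 regions were higher with missing peaks set and 1 was higher and 1 lower with the summit pileup (leave-one-out range 0 to 1 for both). From CP to CM, 1 was higher with missing peaks set and with the summit pileup (range 0 to 1), and 1 was lower at the stricter q, 2 without centring and 1 with the replicate block (range 0 to 2).

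Fitting the replicate block changed no other call of the loci or regions. Whether same-numbered libraries of different stages share an origin is not said in the labels. Their deviations correlated between -0.190 and 0.211 over the pairs of stages. This cannot decide the question, since a weak correlation does not show the absence of a shared origin.

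With lists of equal length, regions gained from hESC to CM numbered 20 against 11 and lost ones 15 against 46. From hESC to MES this setting gave 13 gained and 6 lost, from MES to CP 7 lost and from CP to CM 8 lost. With 1 library left out, regions gained ranged from 11 to 43 and lost from 49 to 138 between hESC and CM, from 26 to 70 and from 14 to 73 between hESC and MES, from 10 to 45 and from 43 to 86 between MES and CP, and from 6 to 29 and from 23 to 67 between CP and CM. These counts rest on 1 library for a stage and rise for that reason. Between hESC and CM, gained regions ran from 2.91% (without hESC replicate 1) to 11.38% (without CM replicate 2) of the 378 regions. Of all regions, 3.293% and 11.82% were gained in these settings. Lost ones ran from 12.96% (without CM replicate 2) to 36.51% (without hESC replicate 1), against 14.31% and 32.96% of all regions. These shares were not tested. For the other steps, and with lists of equal length, shares of all regions are not given. Those counts therefore show nothing particular to the 7 loci.

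The locus difference of CACNA1C between CM and hESC turned to 0.42 with lists of equal length and 0.45 after quantile normalization, and ranged from -0.301 to 0.248 with 1 library left out (0.175 without CM replicate 2). KCNIP2 turned to -0.0155 with 5 kb on either side and -0.0833 with numbers of peaks, with a leave-one-out range of -0.038 to 0.363. FNBP1 turned to 0.18 with lists of equal length, with a leave-one-out range of -0.604 to 0.381 (0.112 without CM replicate 1).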
